A study of Mus musculus with 10 samples.

Results

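The genes described here are 35 mouse genes that the sterol regulatory element-binding proteins (SREBPs) are known to drive or that regulate them: 18 enzymes of cholesterol synthesis (the sterol arm), 12 genes of fatty acid synthesis, desaturation and elongation (the fatty acid arm), and 5 regulators and carriers, Srebf1, Srebf2, Insig1, Mlxipl and Stard4. They were chosen by symbol as known members of the pathway, and all 35 were found among the 24368 genes of the table. Gene expression was measured by bulk RNA-seq of total RNA from the proximal jejunum, the upper, fat-absorbing stretch of the small intestine. There were 5 libraries labelled HuR cKO, from mice whose intestinal epithelium was conditionally deleted for HuR, an RNA-binding protein, and 5 libraries from littermates labelled WT, with 1 library per mouse. The line that drives the deletion, the deleted exons, and the age, sex and feeding state of the mice are not stated in those labels. Values are read counts that the authors divided by the size factor of the library (normalised reads).

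SREBPs are made as precursors held in the membrane of the endoplasmic reticulum by the INSIG proteins while sterols are plentiful. When sterols run low they are carried to the Golgi and cut, and the released fragment enters the nucleus and switches on lipid synthesis genes. SREBP-2, the product of Srebf2, acts mainly on cholesterol synthesis, while SREBP-1c, a product of Srebf1, acts mainly on fatty acid synthesis and is also raised by insulin and by the liver X receptor. In the jejunum these pathways supply the lipids of enterocyte membranes and of the particles that carry absorbed fat.

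Recovered reads per library lay between 16063987 (cKO 1) and 18927440 (cKO 5). Mitochondrial genes held 9.48% of the normalised reads in cKO 1 and 2.69% to 6.09% in the other libraries. Normalised totals ran from 13417113 (cKO 3) to 20427114 (cKO 1) in cKO, and from 16913986 to 18346626 in WT. Elavl1, the gene for HuR, had 725, 639, 628, 619 and 556 normalised reads in cKO 1 to 5, against 695, 632, 631, 663 and 709 in WT 1, 3, 4, 5 and 6. The groups overlapped, and its log2 fold change was -0.08 (limma adjusted p = 0.798). These reads therefore do not show the deletion. A gene-level count need not show the loss of some exons, and non-epithelial cells keep the gene in this model. The part of either in these values was not tested, and directions below follow the labels. All 14 enterocyte markers looked at were measured, and together they summed to 1006342 to 1909943 normalised reads in cKO and 1478268 to 1704697 in WT. In such bulk samples, fewer cells of a type and less RNA per cell cannot be told apart. Libraries cKO 3 and cKO 5 stood apart in clock genes: Per2, a core clock repressor, had 12.7 and 16.0 normalised reads there, while the other cKO libraries held 393, 342 and 526 and WT libraries held 529 to 749. Values without both libraries are given beside the results that they moved.

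The transcript of Srebf1 fell in cKO jejunum and that of Srebf2 did not change past the test. Among the 35 genes Srebf1 was the only one past the threshold, a limma adjusted p under 0.05, which 1.32% of the 14062 genes tested passed in either direction and 0.882% passed lower in cKO. All 35 passed the filter on low values. Neither the sterol arm nor the fatty acid arm had a gene past the threshold. In simulated data of this design, limma recovered 5.63% of 1.5-fold changes and 42.9% of 2-fold changes. A gene not past the threshold, here and below, may therefore still have changed by that much.

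The stretches upstream of Srebf1, Srebf2 and Hmgcs1 are shown because Srebf1 carries the difference, Srebf2 is its paralogue and did not pass the test, and Hmgcs1 is the sterol arm gene whose level followed Srebf2 most closely. Sequences come from RefSeq promoter windows of build GRCm38.p6, written 5′ to 3′ on the strand of the gene, from position -250 to position -101 relative to the annotated start. Capitals mark the letters TCACNCCAC, a form of the sterol regulatory element, and CCAAT, the box bound by NF-Y, a partner of SREBPs, on either strand. RefSeq gives Srebf1 3 starts, and the gene-level reads sum over them.
Srebf1 start at 60222581, chr11:60222682-60222831, minus strand: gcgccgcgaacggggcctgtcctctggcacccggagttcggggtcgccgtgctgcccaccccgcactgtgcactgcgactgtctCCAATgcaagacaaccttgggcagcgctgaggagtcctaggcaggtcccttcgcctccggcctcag
Srebf1 start at 60220627, chr11:60220728-60220877, minus strand: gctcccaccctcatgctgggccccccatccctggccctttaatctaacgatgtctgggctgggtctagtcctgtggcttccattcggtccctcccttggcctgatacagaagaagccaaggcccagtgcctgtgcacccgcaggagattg
Srebf1 start at 60210471, chr11:60210572-60210721, minus strand: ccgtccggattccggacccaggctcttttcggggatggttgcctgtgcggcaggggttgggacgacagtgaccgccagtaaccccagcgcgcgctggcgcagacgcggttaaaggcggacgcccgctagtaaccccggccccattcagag
Srebf2 start at 82147269, chr15:82147019-82147168, plus strand: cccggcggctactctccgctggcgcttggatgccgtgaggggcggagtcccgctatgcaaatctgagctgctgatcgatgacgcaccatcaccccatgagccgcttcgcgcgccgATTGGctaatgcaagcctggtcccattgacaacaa
Hmgcs1 start at 119690351, chr13:119690101-119690250, plus strand: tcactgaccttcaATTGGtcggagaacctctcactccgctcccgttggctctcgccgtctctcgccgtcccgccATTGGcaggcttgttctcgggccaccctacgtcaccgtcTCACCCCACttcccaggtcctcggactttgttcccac

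Over the full 250 bases upstream, 28 of the 35 genes had an entry. A CCAAT box was found on either strand in 14 of 15 sterol arm genes (93.3%) and in 5 of 9 fatty acid arm genes (55.6%), against 37.5% of all 27025 genes with an entry. The element TCACNCCAC was found in Hmgcs1 and Mlxipl, 2 of 28 genes, against 1.22% of all genes. CACGTG, the E-box that SREBPs and several other factors can bind, was found in 6 of 28 (Dhcr7, Elovl5, Hsd17b7, Insig1, Mlxipl and Sc5d), against 6.86% of all genes. For Srebf1, a CCAAT box lay 166 bases upstream of the start at 60222581, as printed above, and another 30 bases upstream of the start at 60210471, beyond the printed stretch. These matches describe letters in the windows and nothing about binding in these samples.

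Srebf1 (ENSMUSG00000020538, chromosome 11, 60199089 to 60222581, minus strand, mm10) encodes the SREBP-1 proteins. It had 301, 410, 364, 564 and 485 normalised reads in cKO 1 to 5, against 857, 654, 780, 1385 and 1273 in WT 1, 3, 4, 5 and 6. Every cKO library lay below every WT library, so the groups did not overlap, which held for 1 of the 35 genes and for 4.87% of all genes tested. The means were 425 ± 103 in cKO and 990 ± 320 in WT (SD, n = 5 each), a log2 fold change of -1.19 ± 0.22 (SE; 95% interval -1.67 to -0.72), or 2.28-fold lower in cKO (limma adjusted p = 0.0215). On the recovered reads, edgeR's quasi-likelihood test with Benjamini-Hochberg adjustment gave 0.0226, where 1.29% of genes passed, and DESeq2 gave an adjusted p of 0.000142, where 5.45% passed. In the simulated data 12.9% of DESeq2 calls were false, against 4.94% of edgeR calls and 4.46% of limma calls. DESeq2 calls here and below are read with that limit. Without both cKO 3 and cKO 5 the log2 fold change of Srebf1 was -1.20, at a limma adjusted p of 0.0863, where 0.399% of all genes tested passed. The call was also lost without cKO 3, WT 4, WT 5 or WT 6 alone (limma adjusted p 0.0567, 0.0519, 0.0534 and 0.059). In the authors' deposited table, whose comparison may include the 2 per-sample columns not used here, Srebf1 had a log2 fold change of -0.944 and an adjusted p of 0.0241, and it was the only one of the 35 genes under 0.05.

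Srebf2 (ENSMUSG00000022463, chromosome 15, 82147181 to 82205379, plus strand) encodes SREBP-2. It had 515, 794, 874, 1330 and 1295 normalised reads in cKO 1 to 5, against 888, 737, 822, 1302 and 1234 in WT 1, 3, 4, 5 and 6. The ranges overlapped almost wholly, with cKO 1 below and cKO 4 above all WT libraries. The means were 962 ± 347 in cKO and 997 ± 255 in WT (SD, n = 5 each), with a log2 fold change of -0.10 ± 0.25 (SE; 95% interval -0.63 to 0.44; limma adjusted p = 0.868). The sign turned to 0.08 when edgeR scaled by library totals, a scaling under which the median of all genes was 0.14. The authors' deposited table gives 0.0272 for Srebf2, with an adjusted p of 0.972.

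Set against Srebf2 in the same library, Srebf1 was lower in each cKO library. The ratio of Srebf1 to Srebf2 reads was 0.585, 0.517, 0.416, 0.424 and 0.375 in cKO 1 to 5, against 0.965, 0.887, 0.949, 1.06 and 1.03 in WT 1, 3, 4, 5 and 6. The WT ratios were close to each other, although both genes varied between WT libraries. On the log2 scale the ratio averaged -1.13 ± 0.26 in cKO and -0.03 ± 0.10 in WT (SD, n = 5 each). The difference was -1.09, a ratio 2.14-fold lower in cKO, with an exact two-sided permutation p of 0.00794, the smallest that 5 against 5 libraries can give. The ratio holds the Srebf1 values, which separate the groups by themselves, so this p is not independent support for the Srebf1 result. Since the ratio is taken within a library, the size factor has almost no part in it. Without both cKO 3 and cKO 5 it was -0.95, again at the smallest exact permutation p possible, 0.0179. Per kilobase of the gene length that the authors deposited, Srebf1 stood at 75.4 normalised reads in cKO and 176 in WT. Srebf2 stood at 134 in cKO and 139 in WT. By this measure Srebf1 had the higher level of the pair in WT and the lower in cKO. That length is not the length of 1 transcript.

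**Figure D1:**
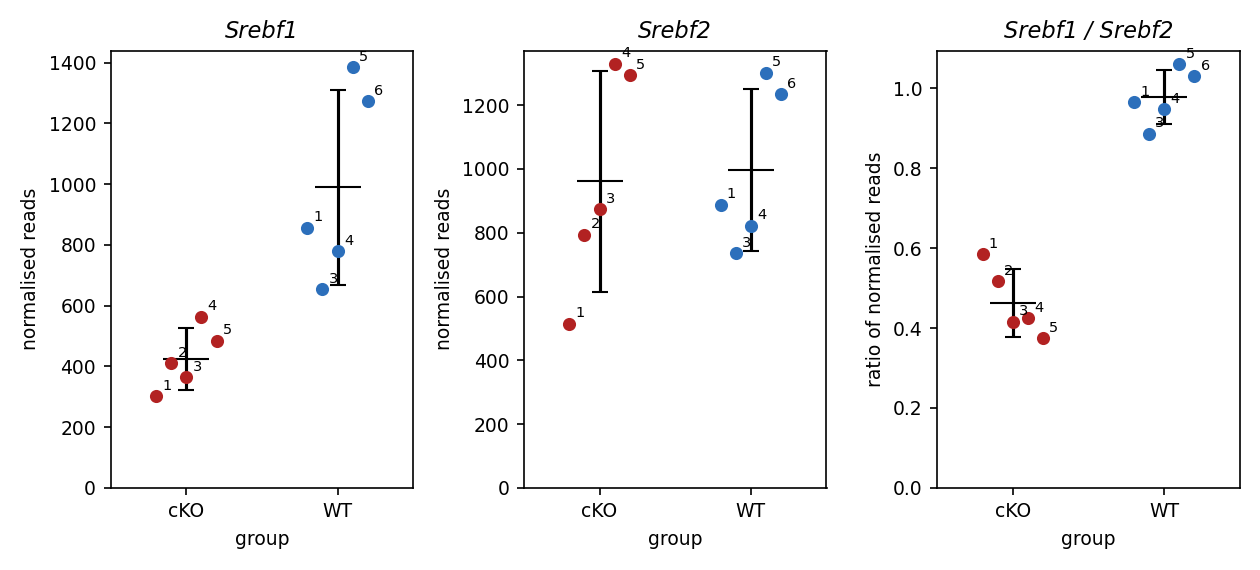
Normalised reads of Srebf1 and Srebf2 and their ratio in each library, cKO left and WT right, with the library number beside each point and bars for the mean and SD of 5 libraries. The cKO and WT points do not overlap for Srebf1 (highest cKO 564, lowest WT 654) or for the ratio (0.585 and 0.887), and they overlap for Srebf2.

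Markers of cells other than enterocytes also differed between the groups. Of 7 fibroblast markers 2 rose in cKO, where 0.441% of all genes tested passed in that direction. These were the collagen genes Col1a1 (579 ± 164 in cKO and 287 ± 87.7 in WT, SD, n = 5 each; limma adjusted p = 0.0426) and Col3a1 (2057 ± 343 in cKO and 1216 ± 188 in WT; limma adjusted p = 0.0357), and the list summed to 6813 to 10774 normalised reads in cKO and 5197 to 6736 in WT. Of 6 endothelial markers Lyve1, a marker of lymphatic vessels, rose to 856 ± 220 in cKO, against 274 ± 74.0 in WT (limma adjusted p = 0.00272), and the list summed to 863 to 1652 in cKO and 413 to 566 in WT. Without both cKO 3 and cKO 5 the calls of Col1a1 and Col3a1 were lost (log2 fold changes 0.88 and 0.72, limma adjusted p = 0.193 and 0.109), and Lyve1 still passed (1.47, adjusted p = 0.0225). No marker of the enterocyte list passed in limma or edgeR, and DESeq2 called 1, Apoa4, where it called 5.45% of all genes. Log2 fold changes of the 14 enterocyte markers were negative in 12 and positive in 2. Their median was -0.26, and -0.13 without both cKO 3 and cKO 5. An unadjusted p under 0.05 was seen for 4 in limma and for 3 in edgeR. The 4 in limma were Apoa4 (-0.86), Alpi (-0.72), Apoa1 (-0.63) and Lct (-0.63). Of all genes tested, 18.6% had one in limma. The part of these shifts in the Srebf1 result was not tested.

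The other regulators and carriers were not past the threshold. Insig1 encodes a sterol-sensing protein that holds SREBPs in the endoplasmic reticulum and is itself an SREBP target. It had 1840, 2231, 1862, 4444 and 1987 normalised reads in cKO 1 to 5, against 3137, 1898, 2050, 4061 and 4399 in WT 1, 3, 4, 5 and 6. Among cKO libraries cKO 4 stood far above the rest, and the groups overlapped. The means were 2473 ± 1113 in cKO and 3109 ± 1136 in WT (SD, n = 5 each), with a log2 fold change of -0.34 (95% interval -0.95 to 0.27; limma adjusted p = 0.546).

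Mlxipl encodes ChREBP, the carbohydrate-sensing partner of SREBP-1 in fatty acid synthesis. It had 343, 426, 315, 437 and 459 normalised reads in cKO 1 to 5, against 443, 504, 465, 456 and 431 in WT 1, 3, 4, 5 and 6. The groups overlapped, with cKO 1, cKO 2 and cKO 3 below every WT library, and the log2 fold change was -0.23 (95% interval -0.55 to 0.09; limma adjusted p = 0.434). Stard4, a carrier of cholesterol between membranes, had a log2 fold change of 0.33 (limma adjusted p = 0.457), with 1355 to 2912 normalised reads in cKO and 1207 to 2081 in WT. Without both cKO 3 and cKO 5 this value was 0.68.

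The sterol arm as a group had a median change near that of all genes tested. Of its 18 genes none passed in limma, edgeR or DESeq2, 0 had an unadjusted limma p under 0.05 and 1 did in each of the other tools, where 18.6% of all genes tested did in limma. Log2 fold changes were positive in 6 genes and negative in 12, with a median of -0.03, against a median of 0.01 over all genes tested. The highest was that of Mvd (0.52, adjusted p = 0.380), which makes isopentenyl pyrophosphate, and the lowest that of Fdps (-0.62, adjusted p = 0.557).

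Hmgcs1 makes HMG-CoA, an early intermediate of the pathway. It had 1317, 1531, 2201, 3718 and 2605 normalised reads in cKO 1 to 5, against 1919, 1645, 1311, 3120 and 3508 in WT 1, 3, 4, 5 and 6. The groups overlapped over nearly their whole ranges, at 2275 ± 957 in cKO and 2301 ± 960 in WT (SD, n = 5 each). The log2 fold change was -0.01 (95% interval -0.69 to 0.66; limma adjusted p = 0.986), which leaves room for changes of up to 1.61-fold downwards or 1.58-fold upwards. An antisense gene overlaps Hmgcs1, and without a stated strand setting the reads of the pair cannot be told apart. Over shared 50-base windows the overlap took 13.6% of the Hmgcs1 transcript.

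Sqle encodes squalene epoxidase, a rate-limiting oxygen-dependent step. It had 735, 592, 678, 1663 and 1340 normalised reads in cKO 1 to 5, against 632, 713, 534, 959 and 1024 in WT 1, 3, 4, 5 and 6. Libraries cKO 4 and cKO 5 lay above every WT library and the other cKO libraries lay among them (log2 fold change 0.29, 95% interval -0.31 to 0.90; limma adjusted p = 0.602). Of the kinases that act on mevalonate, Mvk had a log2 fold change of -0.15 and Pmvk -0.09, and Fdft1, which makes squalene, had 0.01. The Mvk and Pmvk values turned positive (0.01 and 0.02) when edgeR scaled by library totals.

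Idi1, Sc5d and Msmo1 had the smallest p-values of the sterol arm. Idi1 encodes the isomerase that makes dimethylallyl pyrophosphate, and it had 510, 345, 712, 632 and 700 normalised reads in cKO 1 to 5, against 483, 376, 276, 465 and 479 in WT 1, 3, 4, 5 and 6. All cKO libraries but cKO 2 lay above the highest WT library (log2 fold change 0.46 ± 0.22, SE; unadjusted p = 0.0507 and adjusted p = 0.272, limma). Without both cKO 3 and cKO 5 the log2 fold change was 0.24. Matching copies of Idi1 elsewhere in the annotation share 30.5% of its 50-base windows, so this count is uncertain.

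The late enzymes Sc5d and Msmo1 had lower means in cKO. Sc5d, the lathosterol oxidase near the end of the pathway, had 2875, 1547, 1126, 1973 and 1554 normalised reads in cKO 1 to 5, against 2451, 2650, 2109, 2061 and 2259 in WT 1, 3, 4, 5 and 6. All cKO libraries but cKO 1, the highest of all 10, lay below the lowest WT library (log2 fold change -0.41; limma adjusted p = 0.313), and without both cKO 3 and cKO 5 the log2 fold change was -0.15. Msmo1, which removes the methyl groups at carbon 4 of lanosterol derivatives, had 5389, 2234, 2591, 5971 and 2693 normalised reads in cKO 1 to 5, against 5279, 5183, 3200, 4464 and 6994 in WT 1, 3, 4, 5 and 6. The cKO libraries split into a low set of 3 and a pair within the WT range (log2 fold change -0.49; limma adjusted p = 0.375; -0.23 without both cKO 3 and cKO 5).

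The remaining sterol genes run from the cyclase to the final reductases. Lss, which closes the rings of lanosterol, had a log2 fold change of 0.06, Cyp51, its demethylase, -0.02, Tm7sf2, a sterol reductase, -0.22, Nsdhl and Hsd17b7, of the demethylation complex, -0.02 and -0.03, Ebp, the sterol isomerase, -0.26, and Dhcr7, the last reductase of one branch, -0.16. Acat2, which joins acetyl-CoA units at the start, had 0.09. Signs this close to 0 were not stable: Cyp51, Nsdhl, Hsd17b7 and Dhcr7 turned positive (0.07, 0.09, 0.13 and 0.08) under scaling by library totals. In 4 of 5 cKO libraries Ebp lay below the lowest WT library. Fdps was near the limit of measurement, with 1.27, 15.5, 7.13, 13.9 and 16.8 normalised reads in cKO and 10.2, 25.3, 8.77, 15.0 and 14.1 in WT, and 86.4% of its 50-base windows are shared with other annotated genes, so its count is uncertain. Among these genes, the processed pseudogene Gm3571, held 45.8 to 114 normalised reads in cKO and 53.2 to 70.4 in WT. For Acat2 the shared part was 45.9% and for Fdft1 30.7%.

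**Figure D2:**
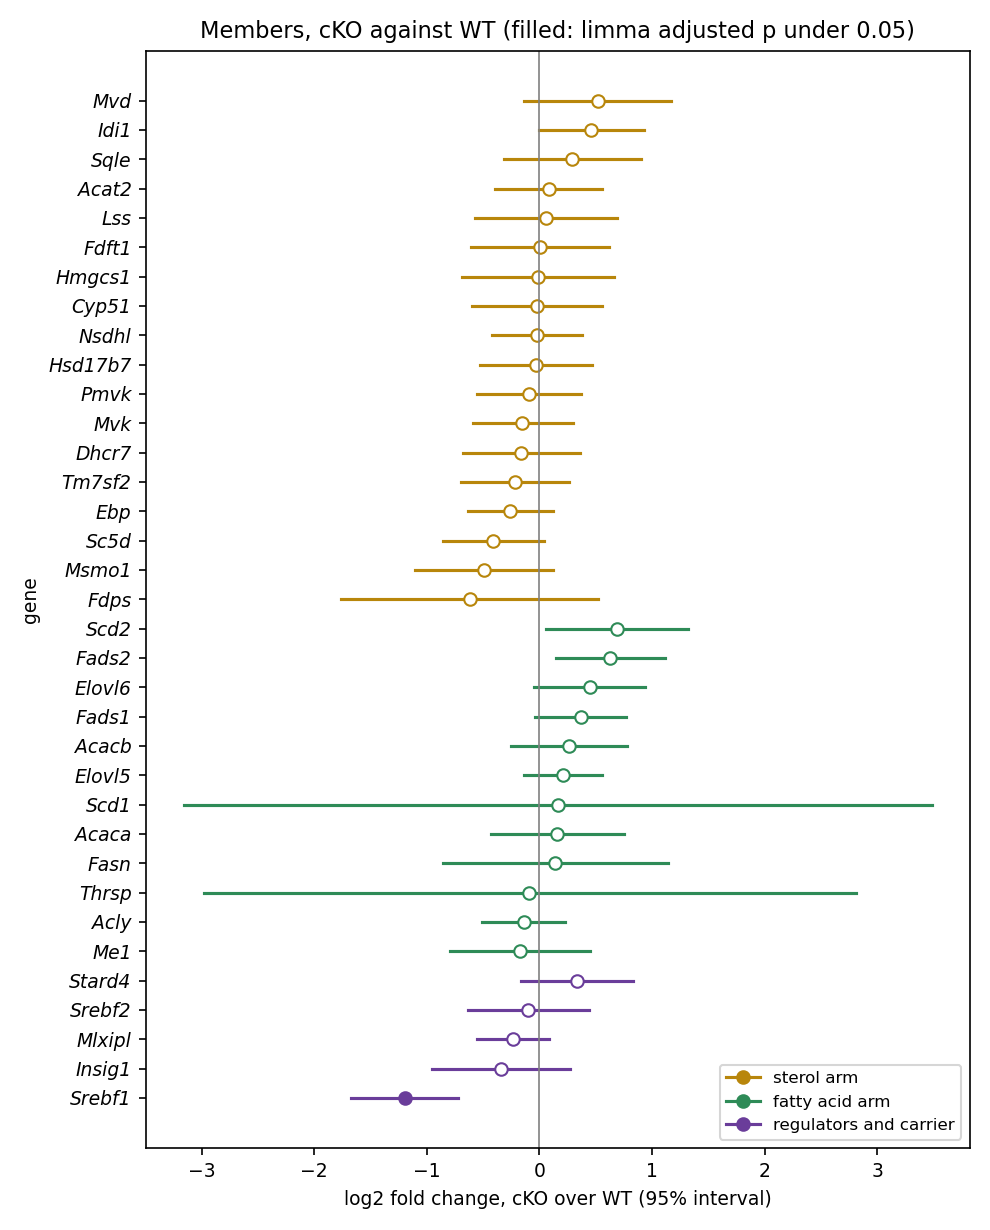
Log2 fold change of each of the 35 genes, cKO over WT, with its 95% interval from limma, by arm, where a filled point marks an adjusted p under 0.05. Srebf1 at -1.19 is the filled point, and the intervals of Scd1 (-3.16 to 3.49) and Thrsp (-2.98 to 2.81) are the widest.

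The fatty acid arm had no gene past the threshold in limma, edgeR or DESeq2. In each tool 2 of its 12 genes had an unadjusted p under 0.05, where 18.6% of all genes tested did in limma. Log2 fold changes were positive in 9 genes and negative in 3, with a median of 0.19, against 0.01 over all genes tested. The 6 genes of desaturation and elongation, Scd2, Fads2, Elovl6, Fads1, Elovl5 and Scd1, had values of 0.17 to 0.69, of which that of Scd1 (0.17) turned to -0.32 in edgeR, while the supply genes Acly and Me1 had -0.14 and -0.17.

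Acaca encodes acetyl-CoA carboxylase 1, which makes the malonyl-CoA used in synthesis. It had 116, 47.3, 135, 132 and 96.2 normalised reads in cKO 1 to 5, against 66.5, 93.2, 75.0, 92.8 and 126 in WT 1, 3, 4, 5 and 6. The groups overlapped, cKO 2 being the lowest library of all (log2 fold change 0.16, 95% interval -0.43 to 0.75; limma adjusted p = 0.795). Its pseudogene Gm5182 shares 52.6% of its 50-base windows and held 25.6 to 42.5 normalised reads in cKO and 21.4 to 41.1 in WT. Acacb, the mitochondrial carboxylase that restrains fatty acid oxidation, was low, at 29.9 ± 4.45 in cKO and 24.7 ± 2.62 in WT (SD, n = 5 each), with a log2 fold change of 0.26 at a limma adjusted p of 0.586. Each cKO library lay above the WT mean of Acacb.

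Fasn encodes fatty acid synthase. It had 505, 230, 529, 648 and 470 normalised reads in cKO 1 to 5, against 215, 596, 200.0, 416 and 1073 in WT 1, 3, 4, 5 and 6. All cKO libraries lay within the WT range, which was the wider one (log2 fold change 0.14 ± 0.45, SE; 95% interval -0.86 to 1.14; limma adjusted p = 0.896). The value was -0.07 in edgeR and in DESeq2. Scd1, the desaturase that makes oleate, had 1233, 99.1, 885, 1181 and 53.7 normalised reads in cKO 1 to 5, against 51.1, 1366, 60.4, 373 and 2436 in WT 1, 3, 4, 5 and 6. Its highest library held 47.6 times the reads of its lowest, and high and low libraries were found in both groups. Its log2 fold change of 0.17 has a 95% interval from -3.16 to 3.49 (limma adjusted p = 0.962) and turned to -0.32 in edgeR, so even a difference of several fold was not detectable for it. Thrsp, a nuclear protein linked to lipogenesis, had the same kind of spread, with 188, 13.6, 77.7, 180 and 6.41 in cKO and 16.4, 177, 9.74, 43.9 and 263 in WT (log2 fold change -0.09; limma adjusted p = 0.979).

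Scd1, Thrsp and Fasn varied with the reads of some fat cell genes within both groups. Adipoq, the hormone adiponectin made by fat cells, had 109, 0, 65.0, 224 and 0 normalised reads in cKO 1 to 5, against 0, 188, 0, 22.9 and 246 in WT 1, 3, 4, 5 and 6. The libraries with no Adipoq read, cKO 2, cKO 5, WT 1 and WT 4, were those with the lowest Scd1 (99.1 and 53.7 in cKO, 51.1 and 60.4 in WT) and the lowest Thrsp. Fasn was lowest in WT 4, WT 1 and cKO 2, but cKO 5 held 470. Plin1, Retn and Lep, other fat cell genes, were also at 0 in those libraries, and Cfd was at 0 in them but for 1.02 in WT 1. Lep was at 0 in cKO 3 and WT 5 as well. Fabp4 was lowest in the libraries without an Adipoq read. Plin4 was lowest in cKO 5 (35.3), WT 1 (41.9) and WT 4 (59.4), but cKO 2 held 113. Other markers of the list did not follow: in cKO 2 and cKO 1, Cidea held 4.55 and 1.27, and Cidec 8997 and 6759. Of the 12 adipocyte markers 10 were tested, and none passed in limma, edgeR or DESeq2. An unadjusted p under 0.05 was seen for 1 in limma, where 18.6% of all genes tested had one, and for 0 in the other tools. The whole list, which holds genes that the epithelium also uses, summed to 11757 to 24105 in cKO and 18792 to 27047 in WT. The part of fat cells in the Scd1, Thrsp and Fasn values was not tested. In the 4 libraries without an Adipoq read, picked after these values were seen, Srebf1 held 410 and 485 in cKO 2 and cKO 5, against 857 and 780 in WT 1 and WT 4. That comparison was not tested.

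**Figure D3:**
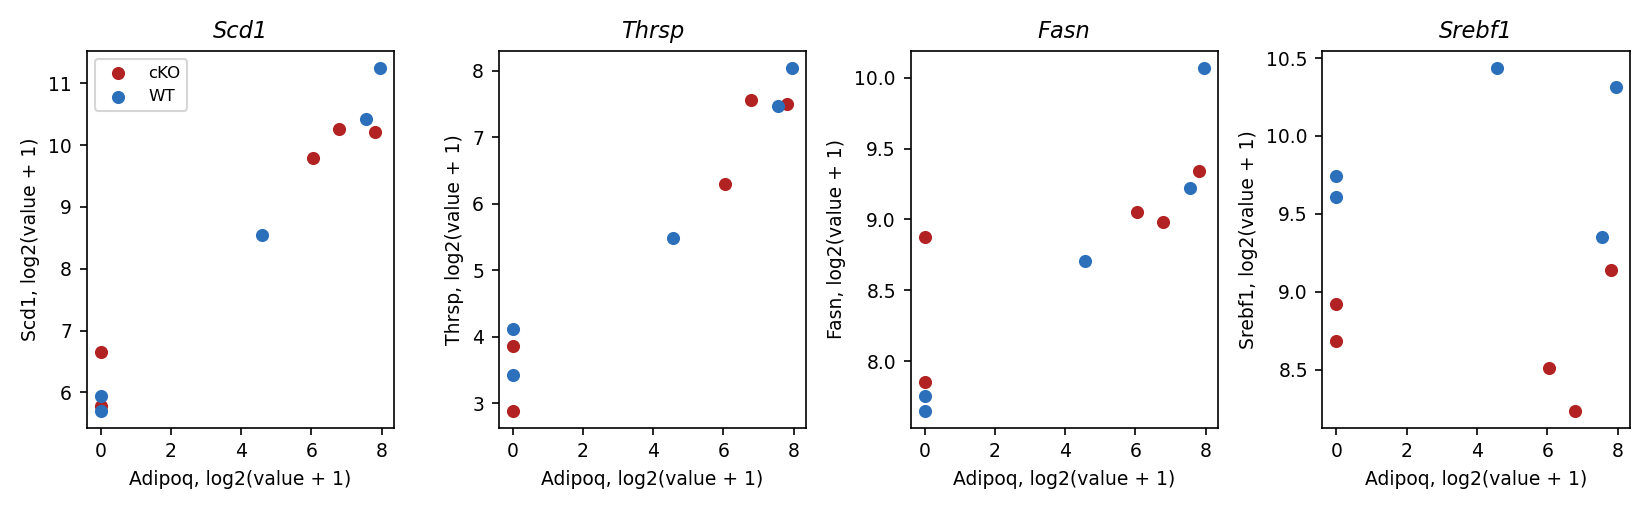
Scd1, Thrsp, Fasn and Srebf1 against Adipoq in the 10 libraries, each as log2 of normalised reads plus 1, with cKO and WT in different colours. The 4 libraries with Adipoq at 0 are the lowest for Scd1 and Thrsp, while every cKO point of Srebf1 lies below every WT point.

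The other fatty acid genes varied less. Scd2, a second stearoyl-CoA desaturase beside Scd1 on chromosome 19, had 563, 284, 661, 485 and 770 normalised reads in cKO 1 to 5, against 374, 286, 173, 498 and 392 in WT 1, 3, 4, 5 and 6. Libraries cKO 1, cKO 3 and cKO 5 lay above every WT library (log2 fold change 0.69 ± 0.29, SE; 95% interval 0.06 to 1.32; unadjusted p = 0.0347 and adjusted p = 0.230, limma). Scd1 and Scd2 share few 50-base windows, 4.66% of Scd1 and 4.01% of Scd2 matching any other gene. The authors' deposited table gives Scd2 a log2 fold change of 0.759 with an adjusted p of 0.0695.

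Fads2, the desaturase that starts the making of long polyunsaturated fatty acids, had 99.2, 120, 183, 130 and 241 normalised reads in cKO 1 to 5, against 96.1, 91.1, 98.4, 109 and 80.1 in WT 1, 3, 4, 5 and 6. All cKO libraries but cKO 1 lay above the highest WT library. The means were 155 ± 57.4 in cKO and 94.9 ± 10.5 in WT (SD, n = 5 each), with a log2 fold change of 0.63 ± 0.23 (SE; unadjusted p = 0.0140 and adjusted p = 0.160, limma). Its highest values were those of cKO 3 and cKO 5, and without both the log2 fold change was 0.29, while that of Scd2 was 0.39. Fads1, the desaturase of a later step, encoded next to Fads2, had 171 to 258 in cKO and 117 to 200.0 in WT (log2 fold change 0.37; limma adjusted p = 0.318).

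Elovl6 lengthens the palmitate made by Fasn. It had 1307, 893, 1496, 1139 and 2114 normalised reads in cKO 1 to 5, against 1503, 1039, 944, 848 and 718 in WT 1, 3, 4, 5 and 6. The groups overlapped, with cKO 5 alone above all WT libraries (log2 fold change 0.45; limma adjusted p = 0.318), and without both cKO 3 and cKO 5 the value was 0.17. Elovl5, which lengthens polyunsaturated fatty acids, had 198 to 288 in cKO and 173 to 239 in WT (log2 fold change 0.21; limma adjusted p = 0.510). Acly, which makes cytosolic acetyl-CoA, had 456 to 628 in cKO and 450.0 to 818 in WT. Me1, a source of NADPH, had 432 to 693 in cKO and 347 to 1212 in WT, and 32.8% of its 50-base windows are shared with other genes.

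**Figure D4:**
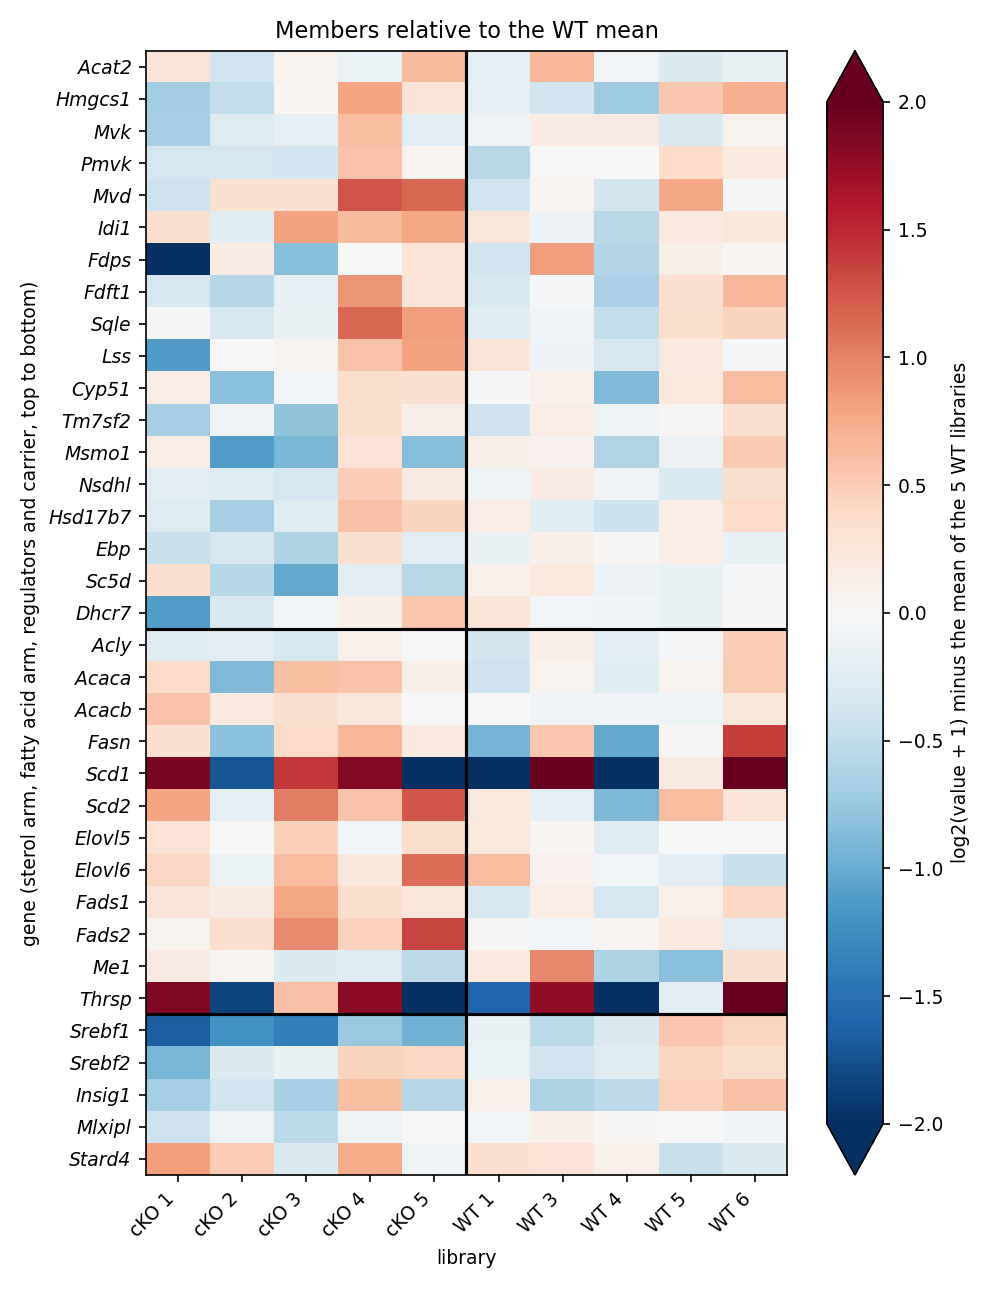
Log2(normalised reads + 1) of the 35 genes minus the mean of the 5 WT libraries, with cKO libraries left of WT libraries and colours that end at 2 in either direction. The Srebf1 row is blue across cKO, while the Scd1 and Thrsp rows reach both ends of the scale in both groups.

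Averaged over its genes as a log2 difference from the WT mean, the sterol arm stood at -0.43, -0.35, -0.25, 0.48 and 0.27 in cKO 1 to 5, and at -0.11, 0.09, -0.33, 0.12 and 0.23 in WT 1, 3, 4, 5 and 6. The fatty acid arm stood at 0.56, -0.42, 0.54, 0.54 and -0.11 in the cKO libraries, and at -0.42, 0.46, -0.70, -0.02 and 0.68 in the WT libraries. Neither arm separated the groups, and the arms did not move as one across the cKO libraries: cKO 1 and cKO 3 were low in the sterol arm and high in the fatty acid arm, cKO 4 was high in both and cKO 2 low in both. Sterol arm minus fatty acid arm was -0.28 ± 0.59 in cKO and 0 ± 0.38 in WT (SD, n = 5 each, WT being 0 by construction), a gap smaller than the spread of either group. Leaving out Scd1 and Thrsp, a choice made after their values were seen, the fatty acid arm was 0.26 ± 0.24 in cKO and 0 ± 0.25 in WT. It then stood at 0.30, -0.15, 0.45, 0.29 and 0.41 in cKO 1 to 5, so cKO 5 turned from low to high. In WT 1, 3, 4, 5 and 6 it stood at -0.08, 0.17, -0.37, -0.02 and 0.29. The sterol arm value of cKO 1 includes Fdps at -2.698, from 1.27 normalised reads.

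**Figure D5:**
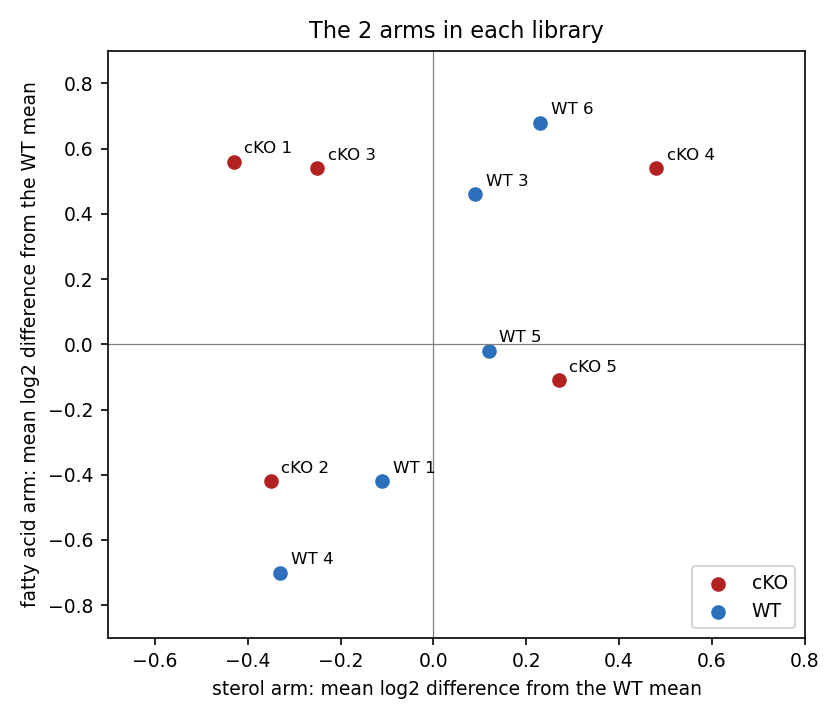
Mean log2 difference from the WT mean over the 18 sterol arm genes (horizontal) and the 12 fatty acid arm genes (vertical) in each library, cKO and WT in different colours. The groups overlap on both axes, cKO spanning -0.43 to 0.48 and WT -0.33 to 0.23 on the horizontal one.

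Across the 10 libraries, sterol arm genes tended to be high where Srebf2 was high. Pearson's r with Srebf2, on log2 values, was positive in 16 of 18 sterol arm genes with a median of 0.635, and in 6 of 12 fatty acid arm genes with a median of 0.0452. Without cKO 1 and cKO 4 these medians lay closer together, at 0.48 and 0.193. The r of sterol arm genes then ran from -0.375 to 0.889, and that of fatty acid arm genes from -0.496 to 0.625. Of 33 relations computed, 2 had a Benjamini-Hochberg adjusted permutation p under 0.05 for r. For Hmgcs1 r was 0.897 (permutation p = 0.00055, adjusted 0.0181) and Spearman's rho 0.867 (permutation p = 0.00212, adjusted 0.0700), with an r of 0.889 without the libraries farthest out in Srebf2, cKO 1 and cKO 4. For Lss r was 0.844 (permutation p = 0.00209, adjusted 0.0345) and rho 0.806 (permutation p = 0.00753, adjusted 0.0828), with an r of 0.617 without those libraries. None passed by both measures. The size factor of a library enters both of its values, and groups of 5 are too small for an r within each. Since Srebf1 separates the groups, no pooled r is given for it.

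Levels per kilobase of the deposited gene length ranged widely among the 35 genes. That length can differ from the length of a transcript. For Msmo1 it was 6144 bases, against 2044 for its longest protein-coding GENCODE transcript, and for Lss 10787 against 4667. The order of genes below therefore holds only for the deposited length. In cKO and in WT, Insig1 had 799 and 1005 normalised reads per kilobase, Msmo1 615 and 818, Hmgcs1 495 and 501, and Sc5d 373 and 474, the highest 4 in WT. At the low end stood Acacb with 3.11 in cKO and 2.56 in WT, Fdps with 2.59 and 3.49, Acaca with 6.16 and 5.31, and Lss with 13.6 and 11.9. Per length, Msmo1, Hmgcs1 and Sc5d were far above the carboxylases and Fasn (43.5 in cKO and 45.7 in WT) in this tissue.

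Related genes outside the 35 were read from 8 further lists of 124 genes, of which 110 were tested. Over all genes tested, 18.6% had an unadjusted p under 0.05 in limma, and DESeq2 called 5.45%. Of 15 tested genes that hold, cut or degrade SREBPs none passed in limma, edgeR or DESeq2, with 3 at an unadjusted p under 0.05 in each and a median log2 fold change of -0.11. Erlin2, a membrane protein of the endoplasmic reticulum that takes part in the breakdown of proteins there, had a log2 fold change of -0.35 (limma adjusted p = 0.225). Of 15 other sterol and isoprenoid genes none passed in limma or edgeR, 3 had an unadjusted p under 0.05 in each tool and DESeq2 called 1. Por, the reductase that hands electrons to Cyp51 and other enzymes, had -0.79 there (limma adjusted p = 0.13), and -0.48 without both cKO 3 and cKO 5. Of 12 other sterol-responsive genes none passed in limma or edgeR, DESeq2 called 1, and an unadjusted p under 0.05 was seen for 1, 1 and 2 genes in limma, edgeR and DESeq2. Npc1l1, the intestinal cholesterol importer, had -0.42 (limma adjusted p = 0.29).

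Genes that feed or flank fatty acid synthesis gave the following, beside the 18.6% of all genes tested with an unadjusted limma p under 0.05. Of 16 genes of acetyl-CoA and NADPH supply none passed in limma, edgeR or DESeq2, with 3 at an unadjusted p under 0.05 in each and a median of -0.24, which was -0.06 without both cKO 3 and cKO 5. Tkt, of the pentose phosphate pathway, had a log2 fold change of -0.68 (limma adjusted p = 0.123), and Slc25a10, a mitochondrial carrier, -0.48 (adjusted p = 0.18). Without both libraries these were -0.53 and -0.31. Of 13 other elongation and desaturation genes none passed in any of the 3 tools, with 1 at an unadjusted p under 0.05 in each and a median of 0.14, which was 0.03 without both cKO 3 and cKO 5. Hacd4 had 0.67 (limma adjusted p = 0.206) and Tecr -0.37 (adjusted p = 0.300).

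The lists around ChREBP and the liver X receptor had negative medians. Of 11 partners and targets of ChREBP none passed in limma or edgeR. An unadjusted p under 0.05 was seen for 8 in limma, where 18.6% of all genes tested had one, and for 7 in edgeR and in DESeq2. DESeq2 called 2, G6pc and Arrdc4, where it called 5.45% of all genes. The median was -0.55, and -0.32 without both cKO 3 and cKO 5. G6pc, which releases free glucose, had 406, 164, 159, 191 and 237 normalised reads in cKO 1 to 5, against 354, 580, 325, 1117 and 662 in WT 1, 3, 4, 5 and 6, with cKO 1 alone within the WT range (log2 fold change -1.33; limma adjusted p = 0.0708). Arrdc4, an arrestin family gene named after its values were seen because DESeq2 called it, had 451, 710, 2735, 572 and 2142 normalised reads in cKO 1 to 5, against 350.0, 324, 356, 413 and 487 in WT 1, 3, 4, 5 and 6. Its highest libraries were cKO 3 and cKO 5, and the log2 fold change of 1.41 (limma adjusted p = 0.152) was 0.57 without both. Tkfc, a fructose-metabolising kinase, had -0.71 (limma adjusted p = 0.128). Of 10 genes of the liver X receptor and its targets none passed in limma, edgeR or DESeq2, with 5, 3 and 5 at an unadjusted p under 0.05 in those tools and a median of -0.30 (-0.22 without both cKO 3 and cKO 5). Its partner receptors Rxrb and Rxra had -0.62 and -0.50 (limma adjusted p = 0.142 and 0.178).

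The 18 clock genes tested had a median log2 fold change of -0.92, and of -0.17 without both cKO 3 and cKO 5. Bhlhe40, a clock repressor, had -1.06 (limma adjusted p = 0.127), and -0.54 without both. Srebf1 held 364 and 485 normalised reads in cKO 3 and cKO 5, and 301, 410 and 564 in the other cKO libraries. Of the 18 clock genes, 3 did not overlap between the groups, as for Srebf1, where 4.87% of all genes tested did not. Per2 and Per3 were among them, with all 5 cKO libraries below every WT library. The part of the clock genes in the Srebf1 result was not tested. Of the lists not yet named, no gene passed among 6 smooth muscle markers (0 at an unadjusted p under 0.05 in limma), 8 immune markers (1), 12 crypt and proliferation markers (3, with 1 call by DESeq2) and the 1 pancreas and liver marker tested (0). Over all genes tested these shares were 18.6% for the unadjusted limma p and 5.45% for DESeq2 calls. Crypt and proliferation markers had positive log2 fold changes in 11 genes and a negative one in 1. Their median was 0.56, and 0.34 without both cKO 3 and cKO 5. That list summed to 2989 to 8015 normalised reads in cKO and 2963 to 3797 in WT. Its part in the Srebf1 result was not tested.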

How the data were processed

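Total RNA of proximal jejunum was sequenced in 10 libraries. Per the submitters' processing notes, CASAVA, HISAT2 2.0.5, featureCounts 1.5.0-p3, DESeq2 1.20.0 and mm10 were used. Neither strand setting nor annotation release nor the handling of multi-mapped reads is given in the sources used here. Near-identical copies and antisense partners cannot be told apart with certainty.

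The signal in the authors' deposited table is normalised: counts of reads over a size factor per library, as the values show, since in units of each library's smallest step 100% of them were whole within 0.001. Whole reads recovered in this way came to 16063987 to 18927440 per library. The authors' deposited table also holds log2 fold changes and p-values, used for comparison and marked where printed. It has 2 further per-sample columns that were not used. Errors are the spread between libraries, which includes counting error.

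Since the table held normalised values and not counts, limma 3.58.1 in R 4.3.3 was the main test: log2(value + 1), a filter at a mean of 10 (14062 of 24368 genes kept), genotype as the only term, empirical Bayes with trend and robust settings, Benjamini-Hochberg adjustment over every tested gene. Because of the added 1, changes of low genes are understated. The ratio of Srebf1 to Srebf2 was tested by exact two-sided permutation of libraries, and correlations by 100000 permutations. edgeR 4.0.16 and DESeq2 1.42.0 on recovered reads, other scalings, filters and pseudocounts, a replicate block and leaving out libraries were alternatives, 22 in all. Steps were tested on simulated data. The arms, the 16 other gene lists and the tests were chosen with earlier results of these data known. Genes given with every library were each gene past the threshold, 9 chosen by role and the 3 smallest p-values of each arm; for other lists, genes past the threshold or the 2 smallest p-values. Of the genes so picked, some are not reported here. Promoter windows are RefSeq's, build GRCm38.p6, and sharing of 50-base windows was computed on GENCODE transcripts of the same assembly. Which of the littermates shared a litter, and any batches, are unknown here, so no such term was fitted. The other gene lists were also read without cKO 3 and cKO 5, a choice made after seeing the data. Python 3.11.15 with scipy 1.17.1 and matplotlib 3.10.9 was used.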

Additional observations from a re-analysis of the deposited data

Results flagged for a closer look

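In 5 of 76 groups of 5 libraries looked at, 1 library stood far from its group, with a gap to its nearest neighbour above 0.71 of the group's range. Chance flags about 1 in 20 groups, close to this number. In cKO 4, Insig1 held 4444 normalised reads, while the next cKO library held 2231 (gap 0.85 of the range), and Mvk held 417, next to 241 (0.721). In cKO 3, Fads1 held 258, next to 193 (0.749). In WT 3, Acat2 held 272, next to 167 (0.803), and in WT 6, Acacb held 29.2, next to 24.5 (0.745). None of these genes passed the test between the groups in limma, whether or not the library was left out.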

How the results depend on the processing

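Srebf1 kept its direction in all 22 alternatives, with log2 fold changes of -1.33 to -1.06 when each library was left out in turn. Its call was lost in 7: without WT 4, WT 5, WT 6 or cKO 3, without both cKO 3 and cKO 5 (-1.20), with no trend and no robust step (-1.19), and in the 8 libraries with shared numbers (-1.08). Members past the threshold then numbered 0, and 0 to 1 over the libraries left out. The log2 ratio of Srebf1 to Srebf2 ran from -1.18 to -1.02, Srebf2 from -0.24 to 0.11, the sterol arm median from -0.21 to 0.05, the fatty acid arm median from 0.11 to 0.40 and the difference between arms from -0.45 to -0.10. The count over all genes was 186, against 30 to 611 with libraries left out, 750 in DESeq2, 88 in the 8 libraries, 42 with no trend and 56 without both cKO 3 and cKO 5.

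Deviations from the group means correlated between same-numbered cKO and WT libraries at 0.118, 0.0218, -0.105 and 0.0957 for numbers 1, 3, 4 and 5. Differently numbered libraries were not compared, so these values cannot tell whether the numbers pair the samples. With the replicate block in those 8 libraries, 2 members passed, Srebf1 and Scd2 (0.98), and the ratio of Srebf1 to Srebf2 was -1.12, at p = 0.125 by exact permutation, the smallest possible with 4 pairs. Signs that turned with the block, and alike in the 8 libraries without it, were those of Srebf2 (0.04), Acly (0.00), Pmvk (0.02), Nsdhl (0.11), Hsd17b7 (0.23), Hmgcs1 (0.28), Cyp51 (0.34) and Thrsp (0.94).

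Other signs turned as follows, all in genes below the threshold. edgeR gave Fasn -0.07, Scd1 -0.32 and Hsd17b7 0.02, and DESeq2 gave -0.07, -0.31 and 0.02. Scaling by library totals gave Scd1 -0.26, Mvk 0.01, Pmvk 0.02, Cyp51 0.07, Dhcr7 0.08, Srebf2 0.08, Nsdhl 0.09, Hmgcs1 0.11 and Hsd17b7 0.13. Totals without mitochondrial and top genes gave Pmvk 0.00, Thrsp 0.00, Hsd17b7 0.06, Cyp51 0.07, Nsdhl 0.07 and Hmgcs1 0.08. Leaving out both cKO 3 and cKO 5 gave Fdft1 -0.01, Nsdhl 0.01, Acat2 -0.09, Lss -0.19 and Thrsp 0.60. With single libraries left out, log2 fold changes ran from -0.05 to 0.25 for Acat2, -0.24 to 0.19 for Cyp51, -0.34 to 0.08 for Dhcr7, -0.12 to 0.49 for Fasn, -0.21 to 0.17 for Fdft1, -0.22 to 0.16 for Hmgcs1, -0.18 to 0.13 for Hsd17b7, -0.12 to 0.36 for Lss, -0.38 to 0.07 for Me1, -0.15 to 0.06 for Nsdhl, -0.25 to 0.00 for Pmvk, -0.50 to 0.89 for Scd1 and -0.66 to 0.60 for Thrsp. The other 19 of the 35 genes never changed sign. The causes were not tested.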
